A study of Caenorhabditis elegans with 4 samples.

Results

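Chromosome III, 1 of the 6 nuclear chromosomes of the nematode Caenorhabditis elegans, held 1087 of the 11110 binding regions in the combined list of a chromatin immunoprecipitation and sequencing (ChIP-seq) study of the transcription factor NHR-129. The regions were chosen by position alone, as every line of that list placed on III. All 4 samples came from strain OP339, hermaphrodites at the L2 larval stage grown at 20 °C. These worms carry the unc-119 mutation ed3 and the transgene wgIs339, which supplies NHR-129 fused to TY1, EGFP and FLAG tags together with a rescuing copy of unc-119. The transgene entered the strain by bombardment, and the genotype lists no change to the worm's own nhr-129. Per the labels, the fusion was seen in seam cells (lateral skin cells), in the pharynx and in neurons of the head. The samples were 2 ChIP samples collected with antibodies against GFP and 2 Input samples of total chromatin from the same strain, and no strain without the tag is among them. Peak lists were analysed for ChIP replicates 1 and 2 and for the combined list, with coordinates of WormBase WS220. Whether the replicates were separate cultures is not stated, and their differences may be technical.

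Nuclear hormone receptors are transcription factors that bind DNA through a zinc-finger domain and often respond to small fat-soluble ligands. The family is much enlarged in nematodes, and many members act in metabolism, moulting and development. The autosomes of this worm have a central part rich in conserved genes that seldom recombines, flanked by arms that recombine more and hold more repeats. III carries the Hox genes lin-39, ceh-13, mab-5 and egl-5, which pattern the body axis, and the gene unc-119, which acts in the nervous system and serves as the selection marker of the transgene. In the gene table used here, which is of another assembly, nhr-129 itself lies on V. Names of genes are not assigned to the regions below and no sequence is shown, because no genome or annotation of WS220 was used here.

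All 2488 lines placed on III in the 3 lists carried the name GEI-11 and none carried NHR. GEI-11, also known as SNPC-4, is a subunit of the complex that starts transcription of small nuclear RNA genes. For this reason, NHR-129 is used below only as the name on the labels. They give a position and a q-value (an adjusted p-value from the peak caller) for each peak, but no read counts. The sequencing depth is therefore unknown, and q-values are used here to order, class and summarise regions within a list. They are often given as −log10 q-values, which are higher for stronger regions. With 2 ChIP samples, no exact test over samples can give a two-sided p below 0.5, and no test was made; intervals are 95% Wilson intervals, which cover counting error only.

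Regions on III formed a broad, uneven field that was dense across the centre and thin on the left. The combined list had 79.1 regions per Mb between its first base on III, 25482, and its last, 13771430. Replicate 1 had 693 peaks on III, or 50.4 per Mb, and replicate 2 had 708, or 51.5 per Mb. The combined regions covered 712 kb, or 5.18% of that span, while the replicate 1 peaks covered 473 kb (3.44%) and the replicate 2 peaks 440 kb (3.20%). The replicates were thus alike in number and extent, and the combined list was longer than either.

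The left stretch of III was the thinnest. In windows of 0.5 Mb, counted by the midpoints of regions, the 7 windows from 0 to 3.5 Mb held 14 to 27 combined regions each. The sparsest full window ran from 2.5 to 3 Mb, with 14 combined regions and 12 peaks in each replicate. It was followed by the window from 2 to 2.5 Mb, with 19 combined regions, 10 replicate 1 peaks and 11 replicate 2 peaks, and by that from 1 to 1.5 Mb, with 21, 14 and 15. These sparse windows held the 2 longest empty stretches of III. The widest gap ran from 2597415 to 2760710 (163 kb) and contained no peak of either replicate. The next, from 2172640 to 2294720 (122 kb), also contained no whole peak of either replicate, and the last base of a replicate 2 peak coincided with its first base. The third widest gap, from 12711517 to 12819817 (108 kb), lay far to the right. Its window, from 12.5 to 13 Mb, held 26 combined regions, and the gap contained no whole peak of either replicate.

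Density rose sharply at 3.5 Mb. The window from 3 to 3.5 Mb held 25 combined regions and the next one 58. Replicate 1 went from 15 to 34 peaks across this step and replicate 2 from 18 to 35. All 15 windows from 3.5 to 11 Mb held between 38 and 82 combined regions, above every window to their left. From 11 to 13.5 Mb the 5 windows held 23 to 33. The limits of these stretches were chosen after the windows had been seen, so the contrast is a description with no test. The stretch from 3.5 to 11 Mb, 54.5% of the length of III, held 767 of the 1087 combined regions (70.6%). Its density was 102 combined regions per Mb, against 43.7 on its left and 60.3 on its right. Both replicates had 66.3 peaks per Mb there, against 27.4 (replicate 1) and 29.4 (replicate 2) on the left, and 36.1 and 39.0 on the right.

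**Figure D1:**
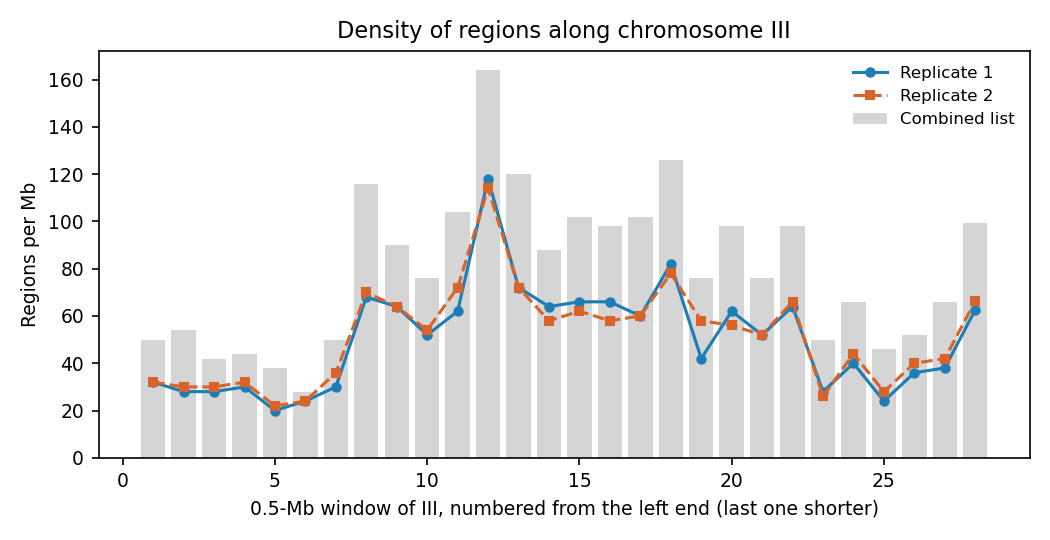
Regions per Mb of chromosome III in 28 windows of 0.5 Mb numbered from the left end, for the combined list (bars), replicate 1 (circles) and replicate 2 (squares). Density peaks in window 12, with 164 per Mb in the combined list, 118 in replicate 1 and 114 in replicate 2; the last window is shorter and scaled to its length.

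The densest window lay from 5.5 to 6 Mb, with 82 combined regions, 59 replicate 1 peaks and 57 replicate 2 peaks. It was followed by the window from 8.5 to 9 Mb, with 63, 41 and 39, and by that from 6 to 6.5 Mb, with 60, 36 and 36. The same 5.5-to-6-Mb window was thus the richest in each of the 3 lists. In steps of 0.1 Mb, the largest count was 20 combined regions, between 5.8 and 5.9 Mb, where replicate 1 had 12 peaks and replicate 2 had 13. The median 0.1-Mb step on III held 7 combined regions, and 1 of the 138 steps held none. Across the 27 full windows of 0.5 Mb, the counts of both replicates moved together (Pearson's r 0.977 and Spearman's rho 0.955, a description of windows on 1 chromosome that share their sequence and both replicates' preparation). The largest difference between the replicates in any full window was 8 peaks.

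The extra density of the central stretch was not accompanied by wider or stronger regions. Median width was 452 bp from 3.5 to 11 Mb, against 468 bp on the left and 507 bp on the right. Median −log10 q-values in the combined list were 7.52, 8.25 and 7.47 in the same order. The share of regions found in both replicates was 54.4% in the central stretch, 58.8% on its left and 53.9% on its right. The number of regions per Mb therefore differed more between stretches than their typical width, strength or replication did. Divided into 3 equal parts, III had 57.9 combined regions per Mb on the left, 108 in the middle and 70.8 on the right. Replicate 1 had 36.8, 69.9 and 44.2 per Mb in these parts, and replicate 2 had 38.8, 69.3 and 46.2. This order was not particular to III. Divided in the same way, II had 40.5, 96.5 and 76.2 combined regions per Mb. Replicate 1 had 22.6, 65.8 and 46.8 per Mb on II, and replicate 2 had 23.4, 59.1 and 48.5. X differed, with 59.2, 67.0 and 76.0 combined regions per Mb.

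Neighbouring regions on III were mostly several kb apart, with a minority in tight runs. The median gap was 6236 bp in the combined list (interquartile range 1622 to 16456 bp), 9958.5 bp in replicate 1 and 9819 bp in replicate 2. No gap was shorter than 200 bp in any list, and 199 of the 1086 combined gaps (18.3%) were under 1000 bp. Joining regions less than 1000 bp apart gave 888 loci, of which 740 were single regions, 112 were pairs and 36 had 3 regions or more. The largest run had 6 regions and extended over 11890 bp, from 5835110 to 5846999, inside the densest window. Its members had combined q-values between 1.74e-39 and 1.42e-04, and 6 replicate 1 peaks and 6 replicate 2 peaks fell in the same interval. These peaks did not match the members 1 to 1. The member 5836246 to 5839917 took in 2 peaks of each replicate, and 5846472 to 5846999 had none. Joined by the same rule, the largest run had 5 peaks in each replicate. It lay at 5835111 to 5844135 in replicate 1 and elsewhere, at 5501374 to 5506538, in replicate 2. The interval was thus crowded in both replicates, though not as the same run. None of the 6 combined members had a −log10 q-value above 100. Runs of 5 regions lay at 5987953 to 5992636 and at 10815819 to 10820827. The runs were named for their size after the counts had been seen.

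Most III regions were of moderate width, with a tail of wide ones. The combined median was 460 bp (interquartile range 340 to 714 bp), and the medians were 476 bp in replicate 1 and 462 bp in replicate 2. Of the 1087 regions, 482 (44.3%) were at least 500 bp wide, 77 (7.08%) at least 1500 bp and 29 (2.67%) under 100 bp. The 5 widest regions were 12612119 to 12617433 (5315 bp), 8443404 to 8448445 (5042 bp), 13462139 to 13466644 (4506 bp), 10214358 to 10218807 (4450 bp) and 3872423 to 3876856 (4434 bp). The last of these was not among the strong regions, with a combined q-value of 3.82e-61 that ranked 51 on III. Width and strength rose together: the median width was 319.5 bp for −log10 q-values from 2 to 3, 520 bp from 10 to 20, 1165 bp from 40 to 100 and 3204 bp above 100. Spearman's rho between width and −log10 q-value was 0.60 over the 1087 regions, a description across regions whose width and q-value come from the same reads.

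**Figure D2:**
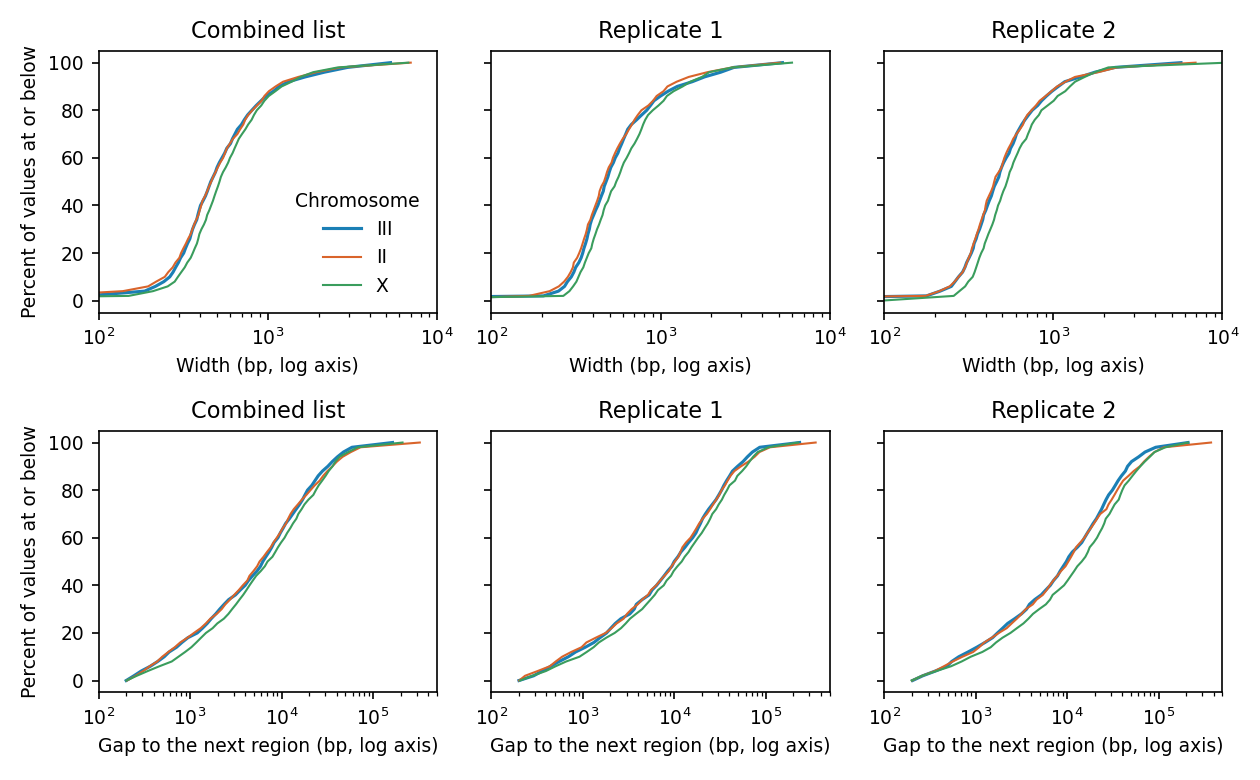
Cumulative percent of region widths (top) and of gaps between neighbouring regions (bottom), both in bp on log axes, for chromosomes III, II and X in each list; widths under 100 bp are off the axis. III and II nearly coincide in width, with combined medians of 460 and 463 bp, while X lies to their right at 518 bp.

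A region counted as supported by a replicate when at least 1 bp of it lay in a peak of that replicate. Of the 1087 III regions, 597 were overlapped by both replicates, or 54.9% (interval 52.0 to 57.9%); over all 11110 regions of the combined list the share was 48.5%. Replicate 1 alone overlapped 80 regions (7.36%) and replicate 2 alone 82 (7.54%), so neither sample supplied many more regions of its own than the other. Neither replicate had a peak over the other 328 regions (30.2%, interval 27.5 to 33.0%), against 26.9% of the whole list. This share was 19.3% on V, the only chromosome clearly below III. It was 38.1% on I, 29.8% on II, 31.9% on IV and 32.3% on X. Median width was 579 bp among the 597 supported by both replicates and 341.5 bp among the 328 without support, and median −log10 q-values were 15.1 and 2.75.

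Replication on III depended on strength in an almost stepwise way. All 137 III regions with −log10 q-values from 20 to 40, all 67 from 40 to 100 and all 19 above 100 were found in both replicates. From 10 to 20, 210 of 212 were, or 99.1% (interval 96.6 to 99.7%). From 5 to 10 the share was 156 of 241, or 64.7% (58.5 to 70.5%), and from 3 to 5 it was 8 of 201, or 3.98% (2.03 to 7.66%). None of the 210 regions from 2 to 3 was found in both, which allows up to 1.80% by the upper Wilson limit. The passage from nearly full to nearly absent replication thus lay between −log10 q-values of 10 and 3. Of the 77 regions at least 1500 bp wide, 74 were found in both replicates, and of the 29 under 100 bp none was. As the combined list and the replicate lists come from the same 2 samples, this describes how the lists relate and is not independent evidence of binding.

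**Figure D3:**
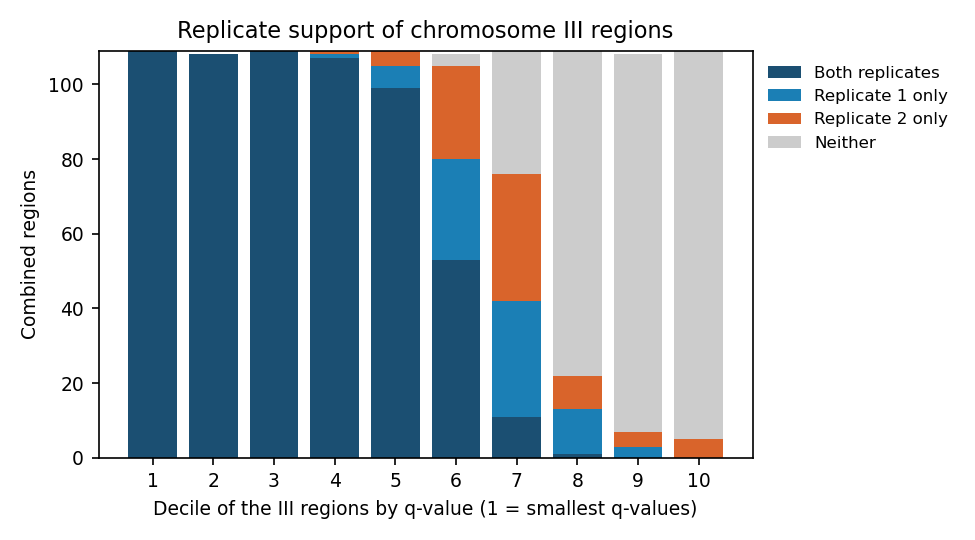
Number of combined III regions overlapped by both replicates, by 1 replicate only or by neither, in deciles of their q-value from the strongest (1) to the weakest (10). All regions of deciles 1 to 3 were found in both replicates, 53 of 108 in decile 6 and none in deciles 9 and 10.

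The strongest combined region without a peak in either replicate was 13621833 to 13622577 (745 bp, q-value 1.55e-07). It ranked 581 among the III regions and had no replicate peak within 3000 bp. The next, 8510916 to 8512010 (1.58e-06), lay between 2 other combined regions at distances of 313 and 211 bp. The closest replicate 2 peak began 289 bp away and the closest replicate 1 peak ended 318 bp away. It was followed by 10856763 to 10857239 (2.50e-06). Of the unsupported regions, 56 of 328 (17.1%, interval 13.4 to 21.5%) lay within 1000 bp of a region found in both replicates, and 126 of the 597 replicated regions (21.1%, 18.0 to 24.6%) lay as close to another replicated region. The intervals of these shares overlapped.

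Between the replicates themselves, 607 of the 693 peaks that replicate 1 had on III were shared with replicate 2, or 87.6% (interval 84.9 to 89.8%). In the reverse direction, 621 of 708 were shared, or 87.7% (85.1 to 89.9%). Over all chromosomes these shares were 71.7% and 77.6%. The shared positions were close: in 577 pairs of peaks that overlapped only each other, midpoints differed by a median of 23 bp, and by at most 50 bp in 437 pairs (75.7%). Replicate 1 peaks were the wider ones in 382 pairs and replicate 2 peaks in 191. The sequence covered by both replicates was 381 kb of the 532 kb covered by either, or 71.8%. Of the 10 strongest III peaks of replicate 1, 6 overlapped 1 of the 10 strongest of replicate 2, against 8 on II and 9 on X. Of the 50 strongest on III 45 did, against 40 on II and 48 on X. Of the 100 strongest on III 88 did, against 82 and 86. All 10, 50 and 100 on III overlapped some replicate 2 peak.

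**Figure D4:**
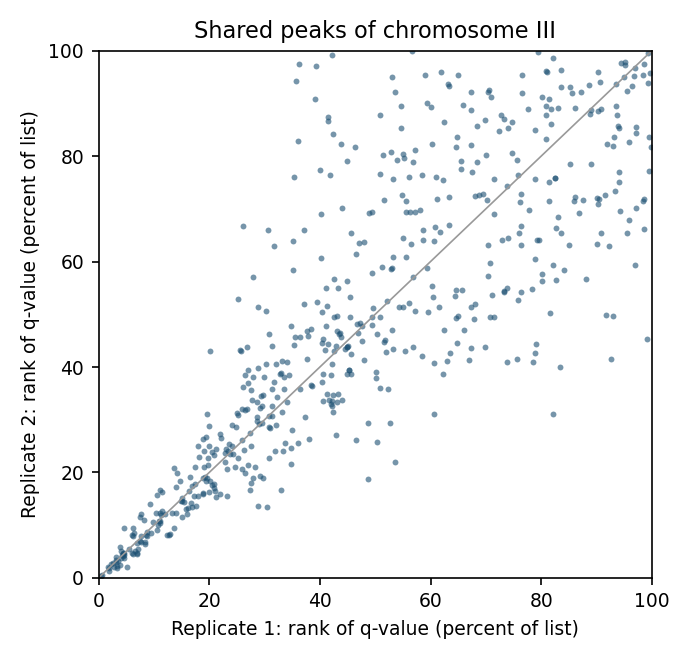
Rank of the q-value within its own list, as percent of all peaks of that list, for 577 pairs of shared peaks on chromosome III; low values are strong peaks and the line marks equal ranks. The ranks differ by a median of 7.20 percentage points and by 61.2 at most; ranks near 0 have little room to differ.

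Ranks in the replicates were similar for most shared peaks and far apart for some. Over the 577 pairs, Spearman's rho between the q-values of the replicates was 0.849, a description across peaks. The ranks, expressed as percent of each list, were within 10 percentage points of each other in 342 pairs (59.3%). The pair with the largest difference lay at 13605993 to 13606380, at 36.2% in replicate 1 (q-value 2.04e-09) and 97.4% in replicate 2 (0.00743). In the opposite direction, the peak at 4003992 to 4004565 stood at 99.2% in replicate 1 (0.00891) and 45.4% in replicate 2 (6.37e-07). These peaks were 388 and 574 bp wide in replicate 1, where the median III peak had 476 bp.

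A single strong peak of III was missing from the other replicate. Replicate 2 had a peak of 1262 bp at 12425580 to 12426841 with a q-value of 1.19e-23, which ranked 825 of its 7109 peaks, and no replicate 1 peak overlapped it. The flanking peaks were present in both replicates: replicate 1 had peaks ending 1225 bp to the left and beginning 2766 bp to the right, and replicate 2 had peaks at almost the same positions. The combined list split the place into 12425634 to 12426360 (q-value 4.26e-13) and 12426614 to 12426813 (0.00753). The next unshared replicate 2 peaks were far weaker, at 3927364 to 3927769 (2.21e-06) and 8512300 to 8513003 (7.87e-06). In replicate 1 the strongest unshared peaks were 7116193 to 7117021 (1.26e-08), 7381709 to 7382141 (5.13e-08) and 12005049 to 12005304 (3.04e-06), and the first of them ranked 3000 of 7583.

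Every peak of III that both replicates shared was present in the combined list. Peaks without an overlapping combined region numbered 3 of 693 in replicate 1 and 3 of 708 in replicate 2, and all were weak. In replicate 1 they were 10266875 to 10267035 (q-value 2.02e-04), 1464831 (a peak of 1 bp, 0.00133) and 5798936 to 5798980 (0.00439). In replicate 2 they were 4598014 to 4598016 (0.00495), 13340884 to 13341123 (0.00561) and 8675091 to 8675100 (0.00856). On X, 5 shared replicate 1 peaks and 4 shared replicate 2 peaks had no combined counterpart, and on II there were none. Over all chromosomes, 321 of 7583 replicate 1 peaks and 335 of 7109 replicate 2 peaks had none. Of these, 34 and 39 were shared between the replicates.

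The strongest regions of III were wide and lay from end to end, but were unevenly spaced. The 19 regions with −log10 q-values above 100 had a median width of 3204 bp, and with III cut into 3 equal parts, 5 lay in the left part, 8 in the middle part and 6 in the right part. Per Mb, the stretch from 3.5 to 11 Mb held 1.47 of them, the left stretch 1.14 and the right one 1.44. These densities rest on 11, 4 and 4 regions, too few to order the stretches. Midpoints of neighbouring strong regions lay a median of 442 kb and at most 2478 kb apart. None of the 19 lay between 1926995 and 4279991, between 5941711 and 8416811, or between 10218807 and 12612119. Several lay close together from 8416811 to 9054314. A pair of them, 61902 to 64276 and 64481 to 67684, lay 204 bp apart near the left end. Another pair, 8794138 to 8796371 and 8799631 to 8802681, was separated by 3259 bp.

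The strongest region of III and of its right part was 12612119 to 12617433, at rank 10 of the whole combined list (q-value 1.61e-262). It was 1 peak in each replicate, with q-values of 5.48e-142 (rank 40) in replicate 1 and 1.10e-127 (rank 37) in replicate 2. The strongest region of the middle part, 8799631 to 8802681, had a combined q-value of 6.32e-245 at rank 20. Its standing was uneven: it was the best III peak of replicate 1 (1.94e-176, rank 23), while replicate 2 broke it into 2 peaks, the better at rank 120 (1.21e-83). The strongest region of the left part, 832025 to 836240, ranked 56 in the combined list (5.17e-193), 31 in replicate 1 (2.48e-159) and 25 in replicate 2 (5.07e-143). By the mean of both replicate ranks it led III.

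Among the other regions with the 10 smallest combined q-values, 5937799 to 5941711 (1.59e-193) ranked 69 in replicate 1 and 108 in replicate 2. The region 13462139 to 13466644 (2.08e-170) ranked 126 and 152. The region 9050987 to 9054314 (2.14e-168) ranked 122 and 223 and was again 2 peaks in replicate 2. All of these stayed within the strongest 5% of both replicate lists. The region 1923135 to 1926995 (8.67e-138) was 2 peaks in either replicate, the better at ranks 219 and 287. The region 4279991 to 4283539 (5.45e-133) was also 2 peaks in either replicate, at ranks 217 and 147. The region 13060767 to 13063280 (2.96e-136) ranked 146 and 94. The last of the 10, 8416811 to 8418030 (7.46e-122), was the only one narrower than 1500 bp, with 1220 bp, and ranked 147 and 131.

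The order by mean replicate rank brought in 2 other regions. The region 61902 to 64276 had a combined q-value of 1.34e-119 and ranked 261 in replicate 1 (1.99e-57) but 52 in replicate 2 (2.17e-112). The region 8734122 to 8734958, only 837 bp wide, had a combined q-value of 1.77e-114 and ranked 166 and 188. It was the narrowest of the 19 strongest regions of III. On III as a whole, 30 combined regions were overlapped by more than 1 peak of a replicate, 14 of them by more than 1 replicate 1 peak and 28 by more than 1 replicate 2 peak.

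Within the whole combined list, fewer III regions stood at the top than at the bottom, as on every chromosome but V. The strongest 10% of the list contained 86 of the 1087 III regions, or 7.91% (interval 6.45 to 9.67%), and the weakest 10% contained 178 (16.4%). The weakest 10% also contained 17.2% of the regions of II and 16.1% of those of X. On V, which supplied 42.3% of the list, the strongest 10% held 12.9% of the regions and the weakest 1.06%. In replicate 1 the strongest 10% held 67 of 693 (9.67%, 7.69 to 12.1%) and the weakest 97 (14.0%). In replicate 2 the strongest held 64 of 708 (9.04%, 7.14 to 11.4%) and the weakest 84 (11.9%). The interval excluded 10% at the top in the combined list but in neither replicate list. The 100 strongest regions included 6 from III in the combined list and 4 in each replicate list. The median III region stood at 52.3% of the combined list, 49.9% of replicate 1 and 49.8% of replicate 2.

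Set beside II, an autosome with almost the same number of regions (1085), and beside X (1192), III had more regions per Mb in each list. In the combined list the densities were 79.1 on III, 71.2 on II and 67.9 on X. In replicate 1 they were 50.4, 45.1 and 42.9, and in replicate 2 they were 51.5, 43.8 and 39.1. The ratio of III to II was 1.11 in the combined list, 1.12 in replicate 1 and 1.18 in replicate 2, and the ratio of III to X was 1.17, 1.18 and 1.32. The direction was the same in both samples, and the difference was not tested for the reason given above.

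III and II were alike in width and unlike X in all 3 lists. Regions of at least 500 bp made up 44.3% of III, 44.7% of II and 53.5% of X in the combined list. In replicate 1 they made up 45.6%, 43.6% and 55.8%, and in replicate 2 43.1%, 42.7% and 54.8%. Gaps under 1000 bp were 18.3% of all gaps on III, 18.7% on II and 13.6% on X in the combined list. For the strongest 10% of the list the order was another: III lay above II (6.18%) and below X (9.23%) in the combined list, and between them again in replicate 1 (6.10% and 11.3%) and replicate 2 (7.05% and 12.2%). The intervals of III overlapped those of both other chromosomes in each list.

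**Figure D5:**
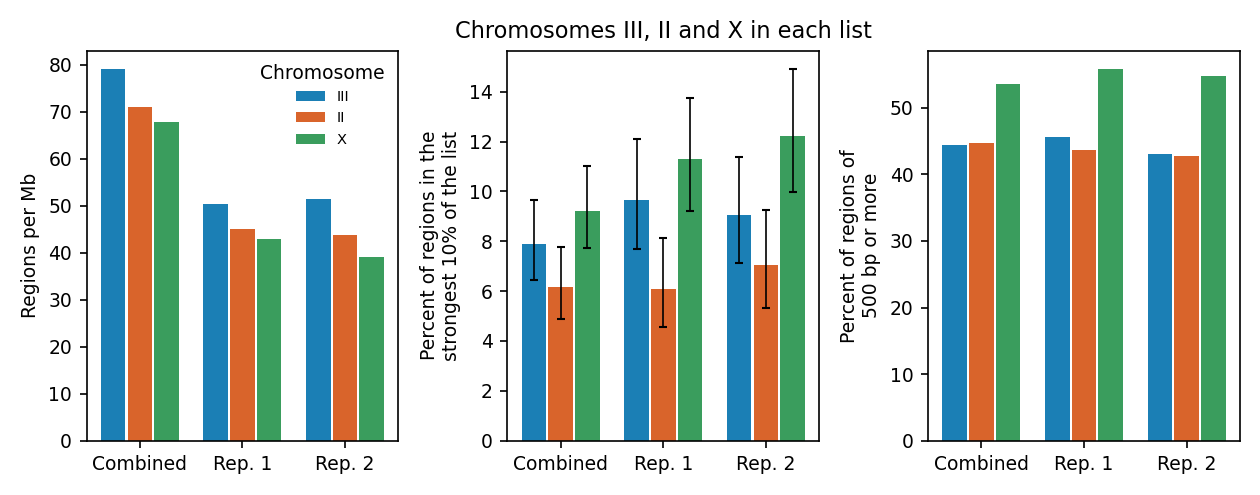
Regions per Mb (left), percent of regions in the strongest 10% of their list with 95% Wilson intervals (middle) and percent of regions of 500 bp or more (right) for chromosomes III, II and X in the combined list and both replicates. Of these chromosomes, III has the highest density in each list, from 50.4 to 79.1 per Mb, and lies between II and X in the middle panel.

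The unevenness of III along its length was of the same order as that of II and larger than that of X. Counts per full 0.5-Mb window had a coefficient of variation of 41.5% on III (27 windows), 41.3% on II (30 windows) and 26.2% on X (35 windows) in the combined list. In replicate 1 it was 45.1%, 51.5% and 28.1%, and in replicate 2 41.2%, 46.3% and 28.8%. The richest window of III, with 82 regions, exceeded the richest of II (60) and of X (55). The poorest window held 14 regions on III, 6 on II and 11 on X. In the combined list the longest gap of III (163 kb) was shorter than those of II (325 kb) and X (210 kb). The longest gaps of III, II and X were 234253, 350893 and 226105 bp in replicate 1. In replicate 2 they were 210141, 375012 and 210352 bp. The order against II thus held in each list, while that against X did not.

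The share of peaks found in the other replicate was higher on III than on II in both directions, while X was uneven. The share of replicate 1 peaks overlapped by replicate 2 was 87.6% on III, 80.7% on II (interval 77.6 to 83.4%) and 79.3% on X (76.2 to 82.0%). The share of replicate 2 peaks overlapped by replicate 1 was 87.7% on III (85.1 to 89.9%), 83.5% on II (80.5 to 86.1%) and 89.2% on X (86.7 to 91.4%). In this second direction the intervals of III and II overlapped. On III the replicate 2 list was slightly longer than that of replicate 1, and on X it was shorter, with 679 peaks against 753. In the combined list, regions with −log10 q-values from 5 to 10 were found in both replicates in 64.7% of cases on III, 58.1% on II (52.1 to 63.9%) and 46.1% on X (40.2 to 52.1%). From 10 to 20 the shares were 99.1%, 98.8% and 98.2%. Shares this close to 100% leave no room for a difference. In the class from 5 to 10 the interval of III (58.5 to 70.5%) overlapped that of II and lay above that of X. These differences lie within 2 samples and were not tested.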

How the data were processed

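Worms were crosslinked with 2% formaldehyde, and sonicated chromatin was precipitated with antibodies against GFP, per the labels' protocols. Samples were grouped by their titles. Peaks were called with PeakSeq on WormBase WS220, per the file headers and columns. The authors deposited a q-value, below 0.01 throughout, and the first and last base of each peak. For the aligner, the PeakSeq settings, the control reads and the making of the combined list, nothing is stated in these sources. The replicate 2 list holds 1 line on II, commented out by a coordinate conversion and left out. List length may follow sequencing depth and is not read as binding.

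Overlaps, widths, gaps, ranks and window counts were computed with SciPy 1.17.1, pandas 2.3.3 and NumPy 2.4.6 under Python 3.11.15, checked on simulated intervals, and drawn with Matplotlib 3.10.9. Density is per Mb from the first to the last region of a list. Regions named are the 10 smallest q-values, 10 best mean replicate ranks, 5 widest, widest gaps, extreme windows, the strongest in each of 3 equal parts of III, and the strongest that lack support; others were chosen after their values were seen. The regions, limits and comparisons were chosen with earlier results of these data known. The gene table, of assembly WBcel235, served only for the chromosomes of named genes.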

Additional observations from a re-analysis of the deposited data

Results flagged for a closer look

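All 2488 peak lines on III were named GEI-11. The name is a field that none of the comparisons above use, and it goes against the labels, which name NHR-129. The name stood on all 25802 lines of the 3 lists, and 0 lines carried NHR. Whether the lists belong to another factor was not tested.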

How the results depend on the processing

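In 58 recalculations of 10 results, 17 stayed within a set range around the combined value and 41 moved beyond it. For shares the range was the Wilson interval. For the other results it was the standard deviation of the 2 replicate values, taken on either side of the combined value. The replicate values can lie outside that range, and their densities of 50.4 and 51.5 per Mb counted as moved. The count of 41 is therefore no measure of disagreement between replicates. Only the ratios to II and to X could change direction, and both stayed above 1 in each recalculation. The other results have no direction to reverse. With regions found in both replicates, the share of the list on III was 11.1%, the density 43.4 per Mb, the ratio to II 1.23, the ratio to X 1.29, the densest window 94 per Mb, the median width 579 bp and the median gap 11754 bp. With the strongest 50% of the list, the density was 38.1 per Mb, the ratio to II 1.26, the densest window 82 per Mb, the median width 606 bp, the median gap 14298.5 bp, the support by both replicates 98.3% and the share of replicate 1 peaks overlapped 99.4%. With regions of 100 bp or more, the share on III was 11.1%, the density 77.0 per Mb, the densest window 160 per Mb, the width 470 bp and the gap 6501 bp. With regions merged within 1000 bp, these were 10.9%, 64.6 per Mb, 112 per Mb, 494.5 bp and 8750 bp. The densest window had 134 per Mb in windows of 1 Mb and 138 per Mb in windows that start at 0.25 Mb. With midpoints within 100 bp in place of overlap, support by both replicates was 42.2% and the share of replicate 1 peaks overlapped 72.4%. The strongest 5% of the list held 3.96% of the III regions.

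Leaving out 1 replicate, so that a single list remained, gave shares on III of 9.14% to 9.96%, densities of 50.4 to 51.5 per Mb, ratios of 1.12 to 1.18 to II and 1.18 to 1.32 to X, and densest windows of 114 to 118 per Mb. Median widths were 462 to 476 bp, median gaps 9819 to 9958.5 bp, support by the remaining replicate 62.3% to 62.5%, and shares in the strongest 10% of the list 9.04% to 9.67%. A smaller set of regions lowers densities and widens gaps by construction; the cause of the other shifts was not tested. No paired analysis was possible because no Input list was used here and the results come from no test. Without read counts, weak peaks missing from a list cannot be told from regions too shallowly sequenced to be called.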
